A study of Mus musculus with 4 samples.

Results

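The ligands of the tumour necrosis factor (TNF) superfamily described here are 10 genes, Tnf, Lta, Ltb, Cd40lg, Fasl, Tnfsf4, Tnfsf8, Tnfsf10, Tnfsf11 and Tnfsf14. They were taken by name from the 50600 genes counted, and all 10 were found in the files. The study is RNA-seq of primary T cells taken from C57BL/6NJ mice. It has a single group, numbered in the labels as biological replicates 1 to 4 with 1 library for each. Th0, activated and 16 h are the terms the file headers use for these cells, and CD4+ T cells appear in the name of the differentiation protocol. Th0 cells are helper T cells activated without cytokines that steer them to a lineage. The labels give no genetic change and no age, and the sex as not collected. They put the 4 biosamples under a shared donor identifier without saying whether these came from separate animals, so the p-values below measure only the spread between these samples. There is no resting or untreated group, so no level can be read as a change with activation.

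TNF superfamily ligands are trimeric proteins that are made at the cell surface, and some are then cut off or secreted. They bind receptors of the TNF receptor superfamily, which signal through TRAF adaptors to NF-kappaB or through death domains to caspases. In helper T cells the family carries much of the help given to other cells: CD40 ligand acts on B cells and dendritic cells, lymphotoxin on stromal cells of lymphoid organs, RANK ligand on dendritic cells, epithelium and osteoclast precursors, and TNF on most cell types.

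Levels are given in TPM, which is counts divided by exonic length and scaled to a fixed total in each library, in the order of replicates 1 to 4 where each library is named. The libraries held 46192242 to 63313389 counted read pairs. As a check of the label, 8 T cell markers were read: Cd3d, Cd3e, Cd3g, Trac, Cd4, Cd28, Lck and Cd5. All 8 reached 1 TPM in each of the 4 libraries, but most of them are also expressed by CD8 T cells. Cd4 itself lay between 710 and 781 TPM, and Cd8a between 0.225 and 1.06 TPM. Cd8b1, the other CD8 chain, lay between 53.3 and 61.1 TPM. No exonic base of any of the 10 ligands lies in an exon of another gene on the same strand in the counted annotation, and counting used the strand.

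All 10 ligands reached 1 TPM in each of the 4 libraries, where 45.2% of 21751 nuclear protein-coding genes did. The median of their mean levels was 151.4 TPM, beside 32.7 TPM over the 9840 nuclear protein-coding genes that reached 1 TPM in every library, and 8 of the 10 lay above that median. Together they summed to 1776 ± 33.1 TPM (SD, n = 4), which was 0.178 ± 0.00331% of all TPM. Without scaling for length, they held 0.0895 ± 0.000717% of read pairs. The highest 5 of them made up 88.6 ± 0.555% of the summed TPM. The libraries are bulk RNA, so fewer cells of a type and less RNA per cell cannot be told apart.

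**Figure D1:**
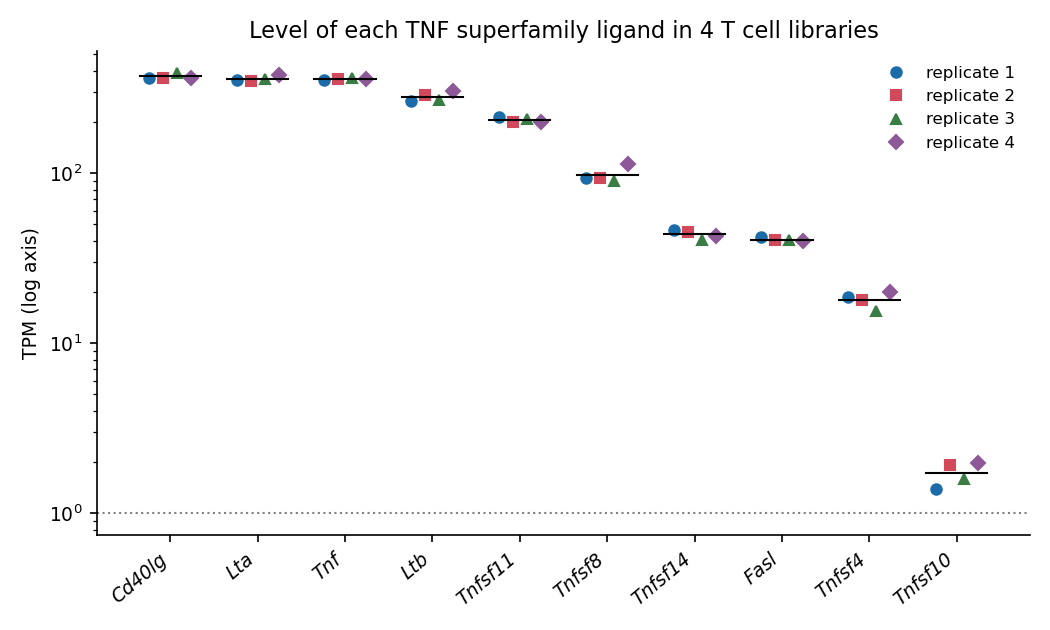
TPM (log axis) of each of the 10 ligands in 4 T cell libraries, 1 symbol per replicate, with the mean as a black line and 1 TPM as a dotted line. Cd40lg, Lta and Tnf sit together near the top between 348 and 389 TPM, and Tnfsf10 sits lowest, between 1.38 and 1.98 TPM.

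In order of mean level the genes ran Cd40lg, Lta, Tnf, Ltb, Tnfsf11, Tnfsf8, Tnfsf14, Fasl, Tnfsf4 and Tnfsf10. The ranking came from the same 4 libraries, so it fixed in advance which gene of a pair had the higher mean. Of the 9 pairs of neighbours in this order, 6 had the same direction in 4 of 4 libraries with ranges that did not overlap. The ranges of the other 3 pairs overlapped. These were Cd40lg and Lta (difference 0.05 ± 0.0722 on the log2(TPM + 1) scale), Lta and Tnf (0.00406 ± 0.0446), and Tnfsf14 and Fasl (0.10 ± 0.0780; SD, n = 4 each). For the first 2 of these pairs the difference was smaller than its SD. For Tnfsf14 and Fasl it was larger, with Tnfsf14 higher in 3 of 4 libraries. The exact two-sided sign-flip permutation p was 0.375, 0.875 and 0.25 for these 3 pairs. It was 0.125 for each of the other 6 (Benjamini-Hochberg adjusted over the 9 pairs 0.1875), which is the smallest p that 4 libraries allow, so no pair could pass 0.05. Among the 6, the widest step was that from Tnfsf4 down to Tnfsf10, at 2.81 ± 0.177.

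Tnf, Lta and Ltb lie side by side on chromosome 17 and were among the 4 highest ligands. In mm10 Ltb occupies 35194439 to 35196320 on the plus strand (ENSMUSG00000024399.5), Tnf 35199381 to 35202007 (ENSMUSG00000024401.14) and Lta 35203165 to 35205351 (ENSMUSG00000024402.5) on the minus strand, so that the 3 genes fit in 10913 bases of the major histocompatibility region. Gaps of 3060 bases between Ltb and Tnf and 1157 bases between Tnf and Lta separate them. Tnf codes for the founding cytokine of the family, a trimer that is shed from the cell surface. Lta codes for lymphotoxin alpha, which is secreted as a homotrimer or held at the surface by lymphotoxin beta, the product of Ltb. Because these neighbours share a high level, the sequence around each start (RefSeq, GRCm38.p6, 250 bases before to 50 after, read along the gene's own strand) is shown. The letters searched were TATAAA on the gene's strand, and on either strand GGAAA, an AP-1 form (TGA, any base, TCA) and an NF-kappaB-like form (GGG, any 2 bases, TTTCC). Capitals mark the TATAAA and NF-kappaB-like matches, and no AP-1 form was found in these 3.
Tnf, chr17:35201958-35202257, minus strand: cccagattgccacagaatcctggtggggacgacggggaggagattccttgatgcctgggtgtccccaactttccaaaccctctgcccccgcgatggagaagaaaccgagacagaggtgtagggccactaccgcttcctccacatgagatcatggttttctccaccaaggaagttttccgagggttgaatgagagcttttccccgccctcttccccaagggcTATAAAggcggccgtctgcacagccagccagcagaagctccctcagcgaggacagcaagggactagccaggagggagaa
Lta, chr17:35205302-35205601, minus strand: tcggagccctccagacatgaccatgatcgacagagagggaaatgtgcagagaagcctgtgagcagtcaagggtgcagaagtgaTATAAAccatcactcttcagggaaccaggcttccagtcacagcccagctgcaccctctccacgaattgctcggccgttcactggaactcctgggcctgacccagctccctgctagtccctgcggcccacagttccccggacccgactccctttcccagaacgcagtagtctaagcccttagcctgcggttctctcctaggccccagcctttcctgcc
Ltb, chr17:35194257-35194556, plus strand: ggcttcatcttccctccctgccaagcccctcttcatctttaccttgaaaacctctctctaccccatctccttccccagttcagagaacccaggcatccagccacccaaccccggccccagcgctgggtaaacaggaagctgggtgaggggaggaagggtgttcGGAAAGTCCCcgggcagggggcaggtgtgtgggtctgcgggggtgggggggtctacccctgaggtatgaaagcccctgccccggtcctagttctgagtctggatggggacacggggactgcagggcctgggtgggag

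The Tnf window holds TATAAA 29 bases before the start, counted to its first base (-29), and the Lta window holds it at -167. The Ltb window has no TATAAA but holds GGAAAGTCCC at -87. Positions count from the RefSeq start. For Ltb this start lies inside the gene span given above, so the match is nearer to the first base of that span. Among all 32851 promoter windows of this length in the table, 8.32% hold TATAAA on the gene's strand, 1.63% hold the NF-kappaB-like form on either strand and 7.81% the AP-1 form. Of the 8 ligands with a window (Cd40lg and Tnfsf4 had none), 2, 1 and 1 held these, the AP-1 form being that of Tnfsf14 (TGAGTCA at -160). GGAAA, the core bound by NFAT factors, or its reverse complement was in 8 of 8 windows, against 61.3% of all windows, with 3 matches in Tnf, 3 in Lta and 1 in Ltb. The Ltb match for GGAAA overlaps its NF-kappaB-like match. These matches describe letters in a window and were not tested for binding.

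Tnf had 9301, 8648, 11159 and 7919 read pairs in replicates 1 to 4, or 352, 357, 361 and 359.8 TPM. Its 4 libraries lay within 10 TPM of each other, around 357 ± 3.95 TPM (SD, n = 4). Lta lay at 352, 348, 358 and 377 TPM (359 ± 12.9 TPM), with replicate 4 highest. The ratio of Tnf to Lta within a library was 1.00, 1.03, 1.01 and 0.955, so the order of the 2 genes turned between libraries. Ltb lay at 267, 287, 271 and 304 TPM (282 ± 16.9 TPM), below Tnf in 4 of 4 libraries, with a ratio to Tnf of 0.758, 0.806, 0.749 and 0.844. That order rests on the gene length used. The deposited exonic length of Ltb is 1516 bases, while its longest coding transcript has 1160 bases and GENCODE M21 also lists a retained-intron transcript there. With the longest coding transcript used for all genes, Ltb averaged 265 TPM and Tnf 257 TPM, and the difference of Tnf from Ltb became -0.04 on the log2(TPM + 1) scale.

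The 3 transcripts differ in their 3′ untranslated regions (GENCODE M21, transcript with the longest coding sequence). The pentamer ATTTA is the core of AU-rich elements, through which cytokine mRNAs are marked for decay or translational control. Tnf has 764 bases after the stop codon with 8 copies of ATTTA, counting overlapping ones, Lta has 572 bases with 3 copies, and Ltb has 156 bases with none. The doubled form ATTTATTTA occurred in Tnf (2 copies) and Lta (1 copy) and in none of the other 8 ligands. It occurred in 5.72% of the 9719 nuclear protein-coding genes at 1 TPM with a 3′ untranslated region, and in 3.19% of the 3106 of these whose region is 400 to 1200 bases long. The densest 30 bases of each gene around this form are shown because of the 10 ligands these 2 hold it, with ATTTA in capitals.
Tnf, chr17:35199679-35199708, minus strand: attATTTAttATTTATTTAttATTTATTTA
Lta, chr17:35203404-35203433, minus strand: tatggagagaaaagttaagttATTTATTTA

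The Tnf stretch holds 5 of the 8 copies in Tnf and the Lta stretch 2 of 3. Per kilobase of 3′ untranslated region, the ligands ranged from no ATTTA in Ltb through 0.981 in Tnfsf14, 1.13 in Fasl, 1.87 in Tnfsf4, 2.0 in Tnfsf10, 3.57 in Tnfsf8, 4.4 in Cd40lg, 5.24 in Lta and 5.31 in Tnfsf11 to 10.5 in Tnf. The value over all genes at 1 TPM was 1.83 per kilobase. A relation between these copies and the levels of the ligands was not tested.

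Cd40lg, the ligand by which helper T cells signal to CD40 on B cells, had the highest mean of the 10. It lies on chromosome X (mm10, 57212143 to 57224042, plus strand; ENSMUSG00000031132.1). Its 7342, 6728, 9178 and 6105 read pairs gave 365, 364, 389 and 364 TPM, a mean of 370.4 ± 12.7 TPM (SD, n = 4). In TPM replicate 3 stood above the other 3 libraries, which lay within 1 TPM of each other. Cd40lg ranked 417 among the 9840 nuclear protein-coding genes at 1 TPM, Lta 435, Tnf 437 and Ltb 589.

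The other ligands that costimulate lymphocytes were lower. Tnfsf8, the ligand of CD30 (chromosome 4, 63831308 to 63861347, minus strand; ENSMUSG00000028362.2), lay at 93.5, 93.8, 90.4 and 113 TPM, a mean of 97.7 ± 10.4 TPM. Replicate 4 was above the other 3, whose values lay within 4 TPM. Tnfsf14 codes for LIGHT, a ligand of HVEM and of the lymphotoxin beta receptor (chromosome 17, 57189492 to 57194189, minus strand; ENSMUSG00000005824.6). It lay at 46.5, 45.4, 40.4 and 42.9 TPM, a mean of 43.8 ± 2.71 TPM. Tnfsf4 codes for the ligand of OX40 and is best known on antigen-presenting cells (chromosome 1, 161395409 to 161418410, plus strand; ENSMUSG00000026700.4). It had 558, 488, 537 and 494 read pairs, or 18.8, 17.9, 15.5 and 20.0 TPM (18.04 ± 1.91 TPM), and ranked 6468 of 9840, lower than all of the ligands here but Tnfsf10.

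The death ligands stood far apart from each other. Fasl, by which activated T cells kill cells that carry Fas (chromosome 1, 161780689 to 161788495, minus strand; ENSMUSG00000000817.10), lay at 41.8, 40.4, 40.6 and 39.8 TPM, and the libraries hardly differed (40.6 ± 0.88 TPM). Tnfsf10, which codes for TRAIL (chromosome 3, 27317028 to 27342427, plus strand; ENSMUSG00000039304.11), had 117, 150, 157 and 140 read pairs, or 1.38, 1.93, 1.58 and 1.98 TPM (1.72 ± 0.286 TPM). Fasl exceeded Tnfsf10 in 4 of 4 libraries. The share of read pairs on Tnfsf10 was 2.18, 3.07, 2.48 and 3.03 CPM. Its 95% Wilson intervals were 1.82 to 2.615, 2.613 to 3.60, 2.12 to 2.90 and 2.57 to 3.58 CPM. The 4 intervals overlapped, though those of replicates 1 and 2 only barely. These intervals cover counting error only. Only 1.85% of the 9840 genes lay lower than Tnfsf10.

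Tnfsf11, which codes for RANK ligand, was the fifth highest. The gene (chromosome 14, 78277445 to 78308043, minus strand; ENSMUSG00000022015.8) had 7675, 6603, 8721 and 6037 read pairs, or 213, 199.7, 207 and 201 TPM (205 ± 6.10 TPM; SD, n = 4). Its values lay below all those of Ltb and above all those of Tnfsf8, and it exceeded Tnfsf8 by 1.78 to 2.29 times within a library.

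No ligand passed a test for more spread between replicates than genes of like abundance have. In edgeR's quasi-likelihood test of the residual spread 0.228% of the 12285 genes tested passed a Benjamini-Hochberg adjusted p of 0.05, and 0 of 10 ligands did. At an unadjusted p under 0.05 there was 1 ligand, Tnfsf8 (adjusted p = 0.873 from edgeR), and DESeq2 marked 0 of 10 as dispersion outliers. The median SD of log2 CPM of the ligands was 0.0635, beside 0.0949 over the 11366 tested genes whose mean TPM was 1 or above. These sets were not matched for level, so the values do not show less spread than in genes of like level. Ligands differed among themselves: the coefficient of variation of CPM over the 4 libraries was 1.42% for Tnf and 1.84% for Lta, against 9.05% for Tnfsf8 and 16.1% for Tnfsf10. Counting alone gives 1.04%, 1.13%, 1.31% and 8.42% for these 4 genes. All 10 ligands lay above the value that counting alone gives, and Fasl, Tnf and Lta lay closest to it as a ratio.

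**Figure D2:**
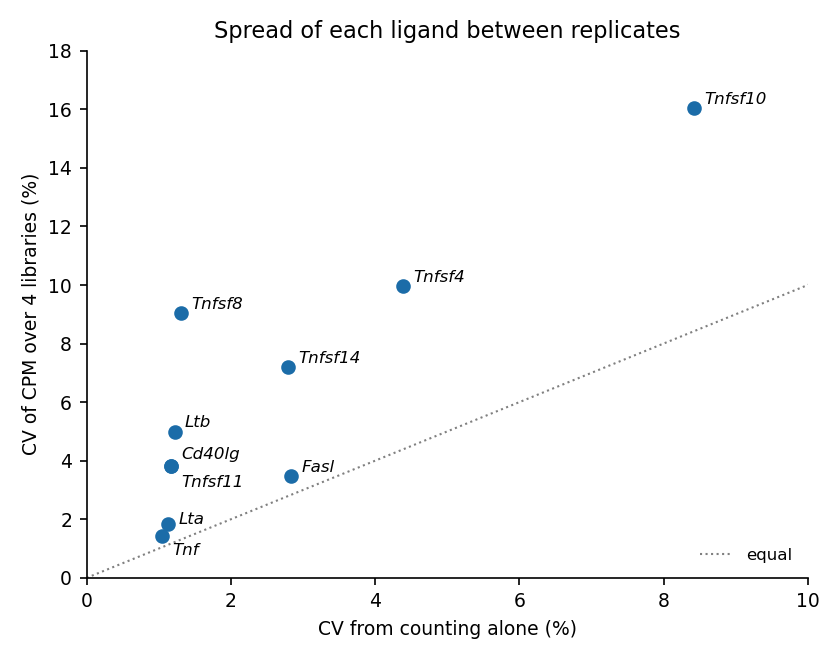
Coefficient of variation (CV) of CPM over the 4 libraries against the CV that counting alone gives at each ligand's mean count, both in percent, 1 point per ligand, with a dotted line where the values are equal. Tnfsf8 stands farthest above the line for its depth, at 9.05% against 1.31%, and Tnf lies near it, at 1.42% against 1.04%.

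Tnfsf10 had the largest SD of log2 CPM of the 10, at 0.24. The 3 protein-coding genes whose centred log2 CPM lay closest to it over the 4 libraries, among 10774 tested, were Nat8f1, D630045J12Rik and Gm4707, with root mean square differences of 0.0191, 0.0334 and 0.0357. With 4 libraries such likeness is a description of these samples.

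The receptors for these ligands covered a wide range of levels. Of 13 receptors of the 10 ligands, 8 reached 1 TPM in each of the 4 libraries, where 45.2% of nuclear protein-coding genes did. Of the 11 receptors that were tested, 0 passed the spread threshold in edgeR (0 also at an unadjusted p under 0.05). Tnfsf4 lay at 15.5 to 20.0 TPM, while its receptor Tnfrsf4 (OX40) lay at 1062 to 1221 TPM, a fold of receptor over ligand of 53.2 to 76.3. Tnf lay at 352 to 361 TPM, and its receptors at 130.4 to 147 TPM (Tnfrsf1b) and 33.5 to 38.3 TPM (Tnfrsf1a), which both also bind lymphotoxin alpha. Fasl exceeded Fas, at 12.2 to 17.0 TPM, by 2.35 to 3.32 times. Tnfsf14 at 40.4 to 46.5 TPM overlapped with its receptor Tnfrsf14 (HVEM) at 44.1 to 51.4 TPM, but exceeded its other receptor Ltbr, at 0.290 to 0.460 TPM, by 98.7 to 160.2 times. Tnfsf10 lay below Tnfrsf10b, the mouse death receptor for TRAIL, at 29.0 to 38.3 TPM, and below the decoy receptor gene Tnfrsf22 at 22.7 to 27.5 TPM, whereas the decoy Tnfrsf23 lay at 0.273 to 0.583 TPM.

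Receptors at 0 or low in the same libraries were also found for Cd40lg, Ltb, Tnfsf8 and Tnfsf11. Cd40lg at 364 to 389 TPM stood beside Cd40 at 0.394 to 0.711 TPM (18 to 39 read pairs), a fold of 513 to 926. Ltb at 267 to 304 TPM stood beside Ltbr at 0.290 to 0.460 TPM (10 to 16 read pairs), a fold of 626 to 960. Tnfsf8 exceeded its receptor Tnfrsf8 (CD30), which lay at 1.13 to 1.60 TPM, by 56.7 to 82.7 times. Tnfsf11 at 199.7 to 213 TPM stood beside Tnfrsf11a (RANK) and its soluble decoy Tnfrsf11b (osteoprotegerin), neither of which had a read pair in any library. A count of 0 allows up to 3 counts in a library, which is 0.0266 to 0.0373 TPM for Tnfrsf11a and 0.0565 to 0.0793 TPM for Tnfrsf11b. These limits cover counting error only.

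**Figure D3:**
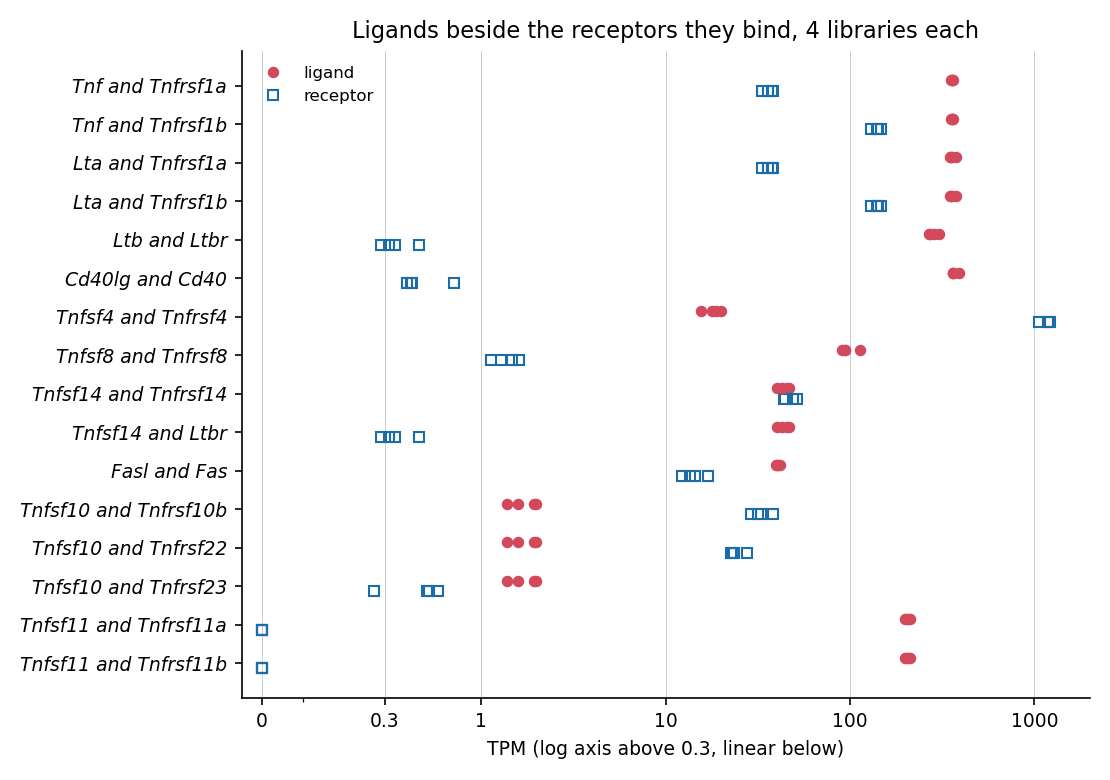
TPM of each ligand (filled circles) and of a receptor it binds (open squares) in the 4 libraries, on an axis that is logarithmic above 0.3 TPM and linear below. The receptor lies above the ligand in 4 of 4 libraries for Tnfrsf4 (1062 to 1221 TPM), Tnfrsf10b and Tnfrsf22, and far below it for Cd40, Ltbr, Tnfrsf8, Tnfrsf11a and Tnfrsf11b.

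Most genes next to the ligands on the chromosomes were lower than the ligand. Outside the Ltb, Tnf and Lta run, Lst1 on the Ltb side lay at 1.13 ± 0.70 TPM, 5999 bases away, and Nfkbil1 on the Lta side at 42.4 ± 3.36 TPM (SD, n = 4 each), 14823 bases away. Several neighbours are ligands of the same family. Tnfsf14 at 43.8 TPM lies 39714 bases from Cd70, the ligand of CD27, at 0.516, 0.883, 0.630 and 1.504 TPM. Tnfsf8 at 97.7 TPM lies 86194 bases from Tnfsf15, which codes for TL1A, at 0.389, 0.0202, 0.0317 and 0.134 TPM. Tnfsf18, the ligand of GITR, lies between Tnfsf4 and Fasl on chromosome 1 and had no read pair in any library, which allows up to 0.0770 to 0.108 TPM. Of the neighbours outside the Ltb, Tnf and Lta run, Prdx6 beside Tnfsf4 was the highest, at 157 ± 8.87 TPM, and it and Nceh1 beside Tnfsf10 (14.7 ± 1.70 TPM) lay above the ligand they adjoin.

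**Figure D4:**
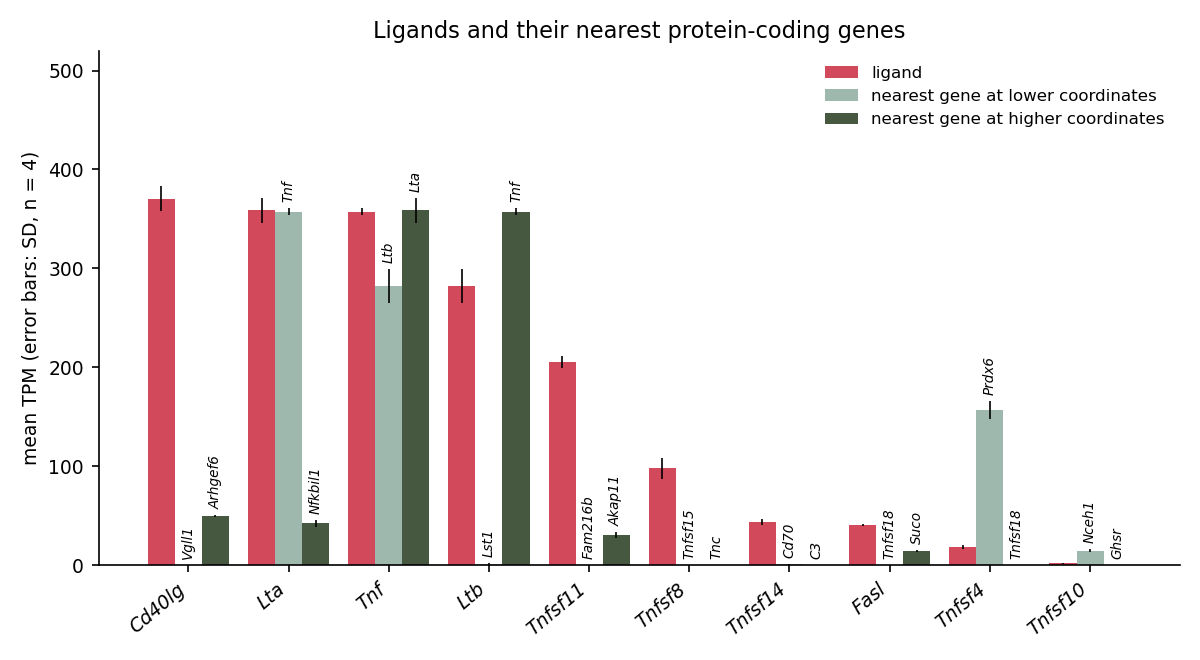
Mean TPM (bars; error bars are the SD, n = 4) of each ligand and of the nearest protein-coding gene on each side, named above its bar. Tall neighbours stand beside Tnf, Lta and Ltb because these 3 genes adjoin each other, and Tnfsf15, Cd70 and Tnfsf18 are at or near 0 beside Tnfsf8, Tnfsf14, Fasl and Tnfsf4.

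Of 8 further ligands of the family, 1 reached 1 TPM in each of the 4 libraries, where 45.2% of nuclear protein-coding genes did. The 1 ligand was Tnfsf9, the ligand of the costimulatory receptor gene Tnfrsf9, at 14.5, 16.4, 12.8 and 11.6 TPM. Cd70 reached that level in replicate 4 alone, at 1.504 TPM, and Tnfsf15, Tnfsf13b (BAFF) and Eda stayed under it in all 4 libraries. Tnfsf12, Tnfsf13 and Tnfsf18 had no read pair. Tnfsf12 and Tnfsf13 share 731 and 983 exonic bases with a gene on the same strand, so reads there could be lost in counting and their levels are uncertain. Of 10 receptors of these further ligands 7 reached 1 TPM in every library, led by Tnfrsf18 (GITR) at 373 ± 15.6 TPM, Tnfrsf9 at 175 ± 10.4 TPM and Cd27 at 165 ± 12.6 TPM. Cd27 shares 129 exonic bases with another gene on its strand.

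Genes for downstream signalling, for cleavage of the ligands and for binding to 3′ untranslated regions were read beside them. Over all nuclear protein-coding genes, 45.2% reached 1 TPM in every library. All 15 adaptors and death genes reached 1 TPM in each of the 4 libraries, from Traf5 at 11.5 ± 0.589 TPM to Casp8, the initiator caspase of death receptors, at 102 ± 3.78 TPM. Birc3, an inhibitor of apoptosis protein bound by TRAF2, lay at 70.1 ± 5.74 TPM. All 6 cleavage genes did too, with Adam10 at 146 ± 6.45 TPM and Adam17, the protease that sheds TNF, at 39.1 ± 1.26 TPM. So did all 11 genes of RNA-binding proteins. This list mixes proteins that promote decay of AU-rich mRNAs with Elavl1 (HuR), which stabilises such mRNAs, Tia1 and Tial1, which act on translation, and Zc3h12a, Rc3h1 and Rc3h2, which recognise stem-loops. Among them were Zfp36 (tristetraprolin, which promotes decay of Tnf mRNA) at 54.1 ± 4.51 TPM, Elavl1 at 81.5 ± 4.44 TPM, Zfp36l1 at 275 ± 27.3 TPM and Khsrp at 394 ± 15.3 TPM. None of the genes of these 3 lists passed the spread threshold in edgeR, and 1 was at an unadjusted p under 0.05, the caspase-8 inhibitor gene Cflar (adjusted p = 0.853).

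Other cells can make these ligands, so their markers were read beside them. The summed level of 8 B cell markers was 9.80, 6.98, 7.46 and 3.00 TPM, lowest in replicate 4, and none of the 8 was at 1 TPM in every library. In TPM, replicate 4 was the highest library for 5 of the 10 ligands (Lta, Ltb, Tnfsf8, Tnfsf4 and Tnfsf10) and not for the other 5. In CPM, Tnfsf10 was instead highest in replicate 2, at 3.07 CPM against 3.03 CPM in replicate 4. The share of all genes highest in replicate 4 was not counted, so the 5 of 10 is not a trait of the ligands. The summed level of the 8 T cell markers was also highest in replicate 4, at 5544 TPM. That of the 13 receptors of the ligands was lowest there, at 1385 TPM. The summed level of 7 NK cell markers ran from 0.447 to 1.94 TPM. Eomes, which T cells can also express, made up most of it at 0.447 to 1.42 TPM, Klra8 had no read pair, and none of the 7 reached 1 TPM in every library. The summed level of 9 macrophage and monocyte markers ran from 2.68 to 7.26 TPM. Of these 9, 1 reached 1 TPM in every library, Cd68, which made up most of the sum at 3.75, 1.77, 6.12 and 4.68 TPM, while Cd14 had no read pair. The summed level of 6 dendritic cell markers ran from 0.644 to 0.857 TPM. Zbtb46 made up most of it at 0.635, 0.556, 0.655 and 0.814 TPM, Siglech and Clec9a had no read pair, and none of the 6 reached 1 TPM in every library. The summed level of 6 stromal and endothelial markers ran from 0 to 0.280 TPM, with none at 1 TPM in every library and no read pair for Pdpn and Kdr. None of 5 neutrophil markers had a read pair. Among innate lymphoid markers Il7r, also a T cell gene, lay at 2.38 to 3.10 TPM, Il1rl1 at 0.0490 to 0.154 TPM and Kit at 0 to 0.167 TPM, while Il23r had no read pair. The part of such cells in the ligand levels was not tested.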

How the data were processed

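Each library has 1 deposited file, in which the authors give raw counts (read pairs for each gene). Per the file headers, featureCounts 1.4.6-p4 counted exons grouped by gene on STAR alignments (version not given in the sources used here), with strand setting 2, both mates required and GENCODE M13. The labels give mm10 as the build. The recorded command names no option for reads that map to several places or genes, so reads shared between genes may be lost. Total RNA-seq is the assay named in the labels, but a linked protocol is named for a polyA+ method.

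Symbols came from GENCODE M21, which matched 50376 of 50600 gene identifiers. TPM used the deposited exonic length. Spread was tested over all 12285 genes kept by filterByExpr in edgeR 4.0.16 (R 4.3.3): TMM factors between 0.9986 and 1.0006, an intercept, robust quasi-likelihood fits, and an F test of residual dispersion on 3 against 13.9 prior degrees of freedom, with Benjamini-Hochberg adjustment at 0.05. log2 CPM used a prior count of 2. DESeq2 1.42.0 gave alternatives. Differences between genes used exact sign-flip permutation. Tables and exact tests were made in Python 3.11.15 with scipy 1.17.1, pandas 2.3.3 and numpy 2.4.6, and plots with matplotlib 3.10.9. Promoter windows came from RefSeq (GRCm38.p6) and matched 8 ligands.

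The members and lists were chosen with earlier results of these data known. The genes named are the ligands, list genes, nearest protein-coding genes and the 3 genes closest to the ligand of largest SD; further list genes were picked from their lists for their role or level. The result of 1 marker gene is not reported here.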

Additional observations from a re-analysis of the deposited data

Results flagged for a closer look

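Among 20 sets of 4 library values examined (the 10 ligands, their sum, and the further ligands and the receptors at 1 TPM in every library), 3 had a library whose gap to the nearest other was a larger share of the whole range than Dixon's 95% critical value for 4 values allows. Chance alone gives about 1 in 20. For Cd40lg the ratio was 0.968, from replicate 3 at 389 TPM against 364 to 365 TPM in the other 3. For Tnfsf8 it was 0.847, from replicate 4 at 113 TPM against 90.4 to 93.8 TPM. For Tnfrsf22, a decoy receptor gene for TRAIL, it was 0.855, from replicate 4 at 27.5 TPM against 22.7 to 23.4 TPM. On the CPM scale, looked at after these values were seen, the ratios were 0.583, 0.757 and 0.748, all under the critical value. Cd40lg then ranged from 132 CPM in replicate 4 to 145 CPM in replicate 3. None of the 3 genes passed edgeR's spread test over all genes (adjusted p = 0.996 for Cd40lg, 0.873 for Tnfsf8 and 0.996 for Tnfrsf22).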

How the results depend on the processing

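All 10 ligands stayed at or above 1 TPM throughout with a protein-coding denominator, with the longest coding transcript as length and with each replicate left out; the count was 10 at a floor of 0.5 TPM and 9 at 5 TPM. No ligand passed the spread threshold under any of the 9 alternatives, and the lowest adjusted p of a ligand in the edgeR ones was 0.411. The count of all genes past it, 28, became 142 with every gene that had a count, 68 by DESeq2 dispersion outliers, and 14 (without replicate 3) to 27 with a replicate left out. The summed level became 1887 TPM over protein-coding genes alone and 1340 TPM with the longest coding transcript. Mean levels of single ligands moved by at most 1.39 times. Tnf against Ltb turned to -0.0433 with that length, and Lta against Tnf ranged from -0.0168 (without replicate 4) to 0.0179. The further ligands at a floor of 0.5 TPM numbered 2. Where the cause of a shift is not set by the alternative itself, the cause was not tested. No paired analysis was possible because there is 1 group. Depth limits Tnfsf10, Cd40 and Ltbr, with 10 to 157 read pairs a library.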
